A study of Homo sapiens with 15 samples.

Results

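S-phase cells were compared with asynchronously growing cells while p53 was held active in both by Nutlin, across all genes, in RNA sequencing of U2OS, a human osteosarcoma line with wild-type p53. The comparison used the 5 of 15 libraries whose labels name Nutlin and either state: 2 S-phase libraries and 3 asynchronous libraries, with no DMSO library. Nutlin blocks MDM2, the ligase that marks p53 for degradation, and was given at 10 µM, a dose whose unit prefix is lost in the labels and was read as micromolar. S-phase cells went through a double thymidine block, with 2 mM thymidine for 16 h, 8 h without it and again 16 h with it. They received Nutlin 4 h before the block was lifted and were collected 4 h after it, with Nutlin still present. Asynchronous cells received Nutlin and, per the labels, no block, and for how long Nutlin was present is not stated in the labels. The S-phase group therefore differs from the asynchronous group in cell cycle position, in exposure to thymidine and possibly in time with Nutlin, and the effects of these cannot be told apart. Non-released cells, which were kept in thymidine with Nutlin, gave 2 further libraries that supply levels of the same genes in blocked cells. Whether replicates came from separate cultures is not stated in the labels, and p-values then reflect only how far these libraries spread, which may be technical.

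Thymidine excess starves cells of deoxycytidine nucleotides and stops them at the start of S-phase, and its removal lets them copy DNA together. Passage into S-phase is driven by E2F transcription factors, which switch on cyclin E, licensing and replication genes, and histone mRNA is made in step with DNA synthesis. p53 opposes entry into S-phase by inducing the kinase inhibitor p21, and it also reports back on itself through MDM2.

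The 5 libraries held between 10.25 and 23.34 M reads assigned to genes. A gene with 0 reads in a library lies below 0.129 to 0.293 counts per M reads, the limit set by 3 reads and by counting error alone. The ribosomal precursor RN45S took 0.1 and 2.54% of reads in S-phase replicates 1 and 2, and 0.45, 0.25 and 0.17% in the asynchronous libraries. Of 22 markers of a bone or mesenchymal line, 12 or 13 passed 100 normalised reads in each of the 5 libraries, and 4 or 5 were at 0. VIM lay at 34910.5 to 39288 normalised reads and RUNX2, the bone lineage regulator, at 97.2 to 195.1. Of the defining markers of other cells, HBB was at 0 in all 5 libraries, PTPRC stayed at or below 15 normalised reads, ESR1 at or below 22.6, KRT19 at or below 33.9 and CDH1 at or below 64.5. EPCAM lay at 32 to 38.9 normalised reads in asynchronous and 66.1 to 73.7 in S-phase libraries. The summed reads of all 23 epithelial markers, carried almost wholly by KRT8 and KRT18, ran from 13438.2 to 14806.8 in asynchronous and from 16677.2 to 17904.7 in S-phase libraries. For 18 blood markers the sums were 169.8 to 221.7 and 270.9 to 326.1. These markers thus moved with the comparison, and their part in the results below was not tested.

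All values below are on the deposited log2 scale, on which a gene with 0 reads lies at 4.859, and a difference is the S-phase mean minus the asynchronous mean with its standard error (SE). Of 13748 genes tested with limma, 5580 passed a Benjamini-Hochberg adjusted p of 0.05, or 40.6% of genes. Among them 2913 were higher in S-phase (21.2% of genes tested) and 2667 lower (19.4%). The 2 S-phase libraries lay above all 3 asynchronous libraries for 30.1% of genes and below them for 30.2%. Large differences lay mostly on the higher side: 222 called genes were higher by at least 1 unit and 32 lower by at least 1 unit, and past 1.5 units the counts were 59 and 1. The median difference of all genes was -0.006. In a fit of all 15 libraries, where the differences are the same and the spread is estimated over all groups, 3431 genes were called, 1902 higher and 1529 lower. RNA came from whole cultures, so fewer cells expressing a gene and less RNA per cell cannot be told apart.

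**Figure D1:**
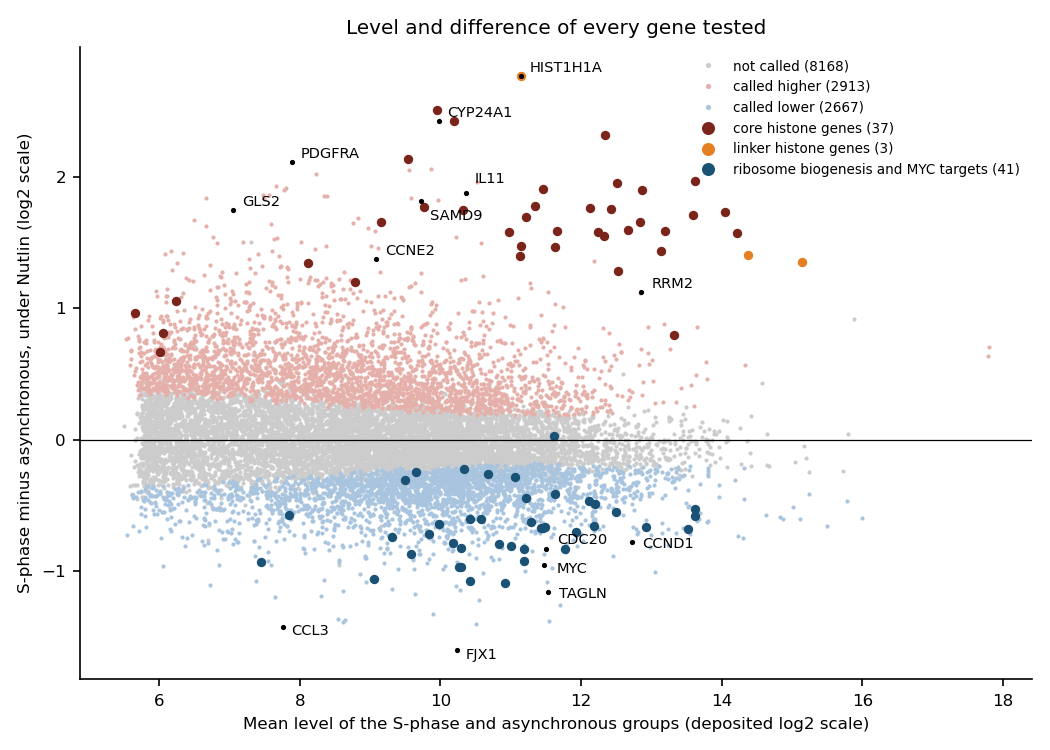
Each point is a gene tested, with its mean level over both groups on the x axis and the S-phase minus asynchronous difference on the y axis, both on the deposited log2 scale; red and blue mark called genes. The 37 core histone genes lie above 0 and reach 2.51, and 40 of 41 ribosome biogenesis genes lie below 0.

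The 15 largest higher genes included 7 histone genes and 8 of other kinds, and the 15 largest lower genes were of mixed function. CYP24A1, the mitochondrial enzyme that inactivates vitamin D, stood at 11.23 and 11.15 in S-phase libraries and at 8.86, 8.73 and 8.7 in asynchronous libraries. The S-phase libraries lay well apart from the asynchronous ones, and the difference was 2.43 ± 0.08 SE (limma, adjusted p = 9.87e-09), a 6.03-fold ratio of normalised reads. PDGFRA, a receptor tyrosine kinase for platelet-derived growth factors, stood at 8.97 and 8.94 against 6.83, 6.8 and 6.89, a difference of 2.11 ± 0.1 (adjusted p = 1.41e-07). Non-released cells were intermediate for both, at 10.19 and 10.26 for CYP24A1 and 8.17 and 8.02 for PDGFRA. SYTL5, a Rab effector of vesicle traffic, rose by 2.06, RGS4, a regulator of G protein signalling, by 2.05, and LBH, a transcription cofactor, by 1.96. UCN2, a peptide hormone of the corticotropin-releasing family, rose by 1.93 and lay at 6.55 and 6.89 in non-released cells, beside 6.59 to 6.81 in asynchronous cells. ZBED2 and CXXC5, both zinc finger proteins, rose by 2.02 and 1.91. Adjusted p-values of the 15 higher genes ran from 9.87e-09 to 1.22e-05.

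FJX1, a relative of the Drosophila growth regulator four-jointed, fell furthest, from 10.9, 11.08 and 11.14 in asynchronous to 9.29 and 9.6 in S-phase libraries. Its difference was -1.60 ± 0.11 SE (limma, adjusted p = 1.52e-06), and non-released cells lay at 9.19 and 9.45. The chemokine gene CCL3 stood at 9.22, 8.35 and 7.85 in asynchronous and at 6.95 and 7.15 in S-phase libraries, so the groups did not overlap although the asynchronous libraries spread widely (difference -1.42 ± 0.28, adjusted p = 0.00173). SH2D5, an adaptor with an SH2 domain, fell by 1.4, and SNAPC1, a subunit of the complex that starts small nuclear RNA genes, fell by 1.38. The secreted pattern recognition protein PTX3 fell by 1.36, the BMP coreceptor RGMB by 1.33 and the RNA-binding repressor SAMD4A by 1.26. TAGLN, an actin-binding protein of contractile cells, fell by 1.16, ADAMTS1, a matrix protease, by 1.2, TUFT1 by 1.22, and C8orf73 and CCDC86 by 1.19 and 1.17. NAPRT1, which makes NAD from nicotinic acid, and the cationic amino acid transporter SLC7A2 fell by 1.15 and 1.14. All 30 genes were called in each of the 15 alternative analyses of this comparison.

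**Figure D2:**
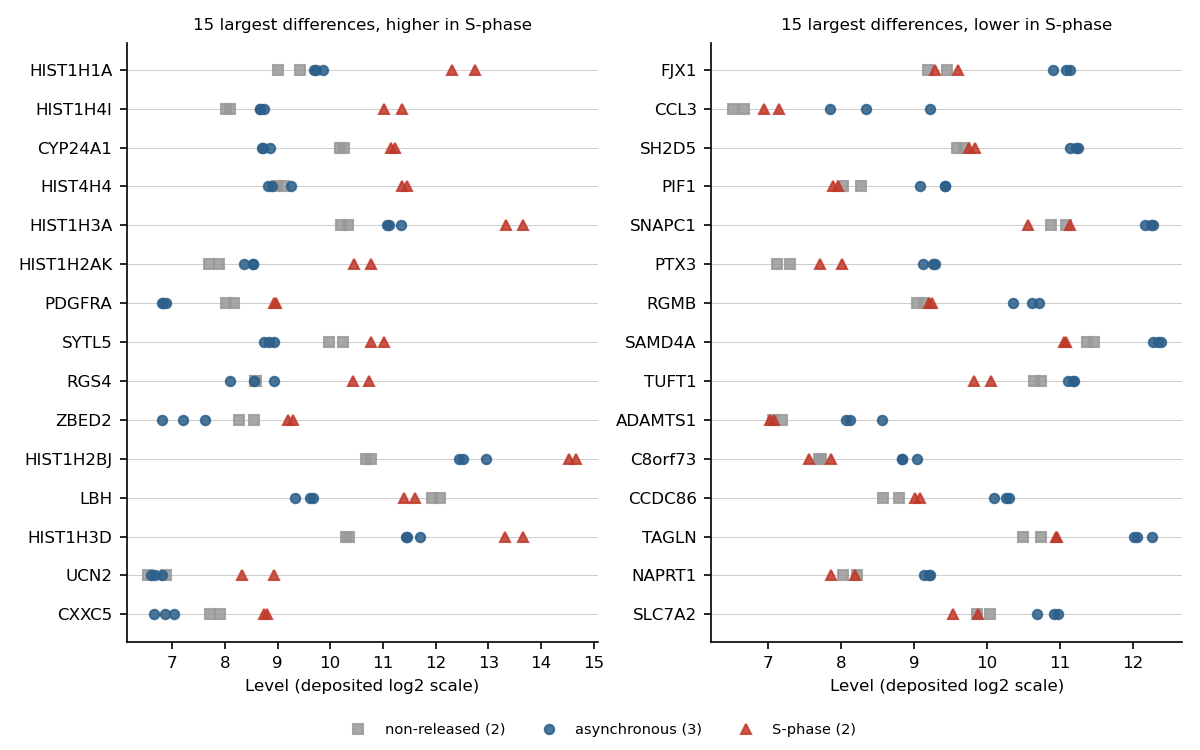
Level of the 15 genes with the largest higher differences (left) and the 15 with the largest lower differences (right) in each Nutlin library, on the deposited log2 scale; triangles are S-phase, circles asynchronous and squares non-released libraries. HIST1H1A sits at 12.32 and 12.75 in S-phase and between 9.69 and 9.87 in asynchronous libraries, and TUFT1 in non-released libraries, at 10.65 and 10.74, lies between the groups.

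Replication-dependent histone genes had the highest median difference of the 24 gene lists described. All 37 core histone genes tested were called higher, with differences from 0.67 to 2.51 and a median of 1.59, beside 21.2% of all genes. The linker histone gene HIST1H1A had the largest difference of all genes tested: it stood at 12.75 and 12.32 in S-phase and at 9.73, 9.69 and 9.87 in asynchronous libraries (2.77 ± 0.14 SE, limma adjusted p = 1.41e-07). Its mean in S-phase libraries was 7.3-fold that of asynchronous libraries in normalised reads. The other 2 linker genes tested, HIST1H1E and HIST1H1C, rose by 1.41 and 1.35. Among core histones the H4 gene HIST1H4I stood at 11.37 and 11.03 against 8.67, 8.74 and 8.66, and rose by 2.51 ± 0.1 (adjusted p = 5.32e-08). The solitary H4 gene HIST4H4 rose by 2.42, the H3 genes HIST1H3A and HIST1H3D by 2.32 and 1.95, the H2A gene HIST1H2AK by 2.14, and the H2B genes HIST1H2BJ and HIST2H2BE by 1.97 and 1.58. By list median blocked cells lay on the other side of asynchronous cells. Relative to the asynchronous mean it was -0.99 and -1.03 in the non-released libraries and 1.73 and 1.55 in the S-phase libraries. Not every member did so: HIST4H4, HIST1H4C and HIST1H3E had non-released means of 9.06, 10.93 and 6.03. Their asynchronous means were 8.98, 10.9 and 5.68. For HIST1H2BJ the level was 10.77 and 10.68 in non-released, 12.95, 12.52 and 12.44 in asynchronous and 14.67 and 14.54 in S-phase libraries.

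A minimum level was required for testing, and S-phase libraries alone could meet it. Of the 37 genes 33 met it on asynchronous libraries alone and 4 only with S-phase libraries, so for those 4 the filter itself favours a higher S-phase value. Another 27 core histone genes of the table were not tested, at no more than 34.1 normalised reads in any of the 5 libraries, and 9 of them had 0 reads throughout. Histone genes are near-identical copies, so the split of reads between members is uncertain. Most histone mRNAs end in a stem-loop and lack a poly(A) tail, and the labels name no selection step beyond the library kit. S-phase replicate 2, with 2.54% of RN45S reads, and replicate 1, with 0.1%, gave list medians of 1.55 and 1.73, both far above the asynchronous libraries. Of 13 factors that make histone mRNA 3 were called higher and 4 lower, beside 21.2 and 19.4% of all genes. Their differences ran from -0.36 to 0.43, with a median of -0.09. NPAT, the coactivator of histone genes, rose by 0.35 ± 0.07 (adjusted p = 0.00281) and its partner CASP8AP2 by 0.43 ± 0.08 (adjusted p = 0.00101). Lower calls in the list, of whichever members, numbered 0 without asynchronous replicate 2, 1 without asynchronous replicate 3 and with all 15 libraries, and 2 without S-phase replicate 1. The list median was -0.035 without asynchronous replicate 2, -0.056 without asynchronous replicate 3 and 0.019 without S-phase replicate 2.

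Promoters of histone genes are shown because the genes moved together. RefSeq promoter windows of build GRCh38.p14 run from 250 bases before to 50 after the start, and 30 of the 37 core histone genes had one. CCAAT, on either strand, was in 83.3% of these 30 and in 34.6% of all 35116 windows, and TATAAA in 76.7% and 11.5%. All windows include genes not tested here. A window was found for 76.3% of genes tested, and in these the shares were 36.6 and 5.68%. The 150 bases before the start are printed 5′ to 3′ on the strand of the gene, for genes chosen after their values were seen, with CCAAT and TATAAA in capitals.
HIST1H1A, chr6:26017788-26017937, minus strand: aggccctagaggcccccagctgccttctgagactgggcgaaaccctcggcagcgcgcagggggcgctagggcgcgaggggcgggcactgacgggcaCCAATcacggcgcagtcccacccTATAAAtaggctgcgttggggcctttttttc
HIST1H3A, chr6:26020301-26020450, plus strand: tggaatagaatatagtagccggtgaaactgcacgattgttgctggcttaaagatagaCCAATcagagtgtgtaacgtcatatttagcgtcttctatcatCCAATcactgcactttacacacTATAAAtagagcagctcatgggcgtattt
HIST1H4I, chr6:27139132-27139281, plus strand: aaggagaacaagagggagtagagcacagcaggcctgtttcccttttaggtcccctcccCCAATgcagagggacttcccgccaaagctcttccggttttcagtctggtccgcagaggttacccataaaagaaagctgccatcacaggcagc
In HIST1H1A the CCAAT lies 54 bases and the TATAAA 31 bases before the start, and in HIST1H3A a second CCAAT lies further out, 93 bases before it. HIST1H4I holds a CCAAT and no TATAAA in these letters. A match is a description of the sequence and shows neither a bound factor nor a cause.

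Genes of the G1/S transition were higher in S-phase than in asynchronous cells. Of 34 such genes 25 were called higher and 1 lower, beside 21.2 and 19.4% of all genes, with a median difference of 0.47. CCNE2, which encodes cyclin E2, stood at 9.86 and 9.7 against 8.41, 8.4 and 8.39, the groups being far apart (1.38 ± 0.09 SE, limma adjusted p = 5.32e-07). CCNE1, the other cyclin E gene, rose by 0.75 ± 0.08 (adjusted p = 2.35e-05). RRM2 and RRM1, the subunits of ribonucleotide reductase, rose by 1.12 and 0.81, and FAM111B, a protease, by 1.22. CCND1 was the only member called lower: this gene for cyclin D1, which acts before cyclin E, stood at 12.32 and 12.35 against 13.09, 13.17 and 13.07 (-0.77 ± 0.07, adjusted p = 9.49e-06). The members also lay above asynchronous cells in blocked cells: non-released libraries had list medians of 0.5 and 0.56 above the asynchronous mean, and S-phase libraries 0.46 and 0.43. CCNE2 reached 10.17 and 10.23 in non-released cells, above its S-phase values. Both comparisons, S-phase and non-released each against asynchronous, use the same asynchronous libraries.

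Genes that license origins and build the replisome followed the same direction, with a median of 0.33. Of 57 tested 37 were called higher and 4 lower, beside 21.2 and 19.4% of all genes. ASF1B, a histone chaperone that hands new H3 and H4 to the fork, stood at 10.37 and 10.44 against 9.41, 9.3 and 9.38 (1.05 ± 0.08, limma adjusted p = 3.73e-06). PRIM1, the catalytic primase subunit, rose by 0.79, POLA2, of the same primase and polymerase alpha complex, by 0.6, CDC6, a loader of the MCM helicase, by 0.7, and PCNA, the sliding clamp, by 0.57. ORC2, of the origin recognition complex, fell by 0.39 ± 0.1 (adjusted p = 0.00686). The other 3 lower calls, for POLE3, POLD2 and POLE2, were of 0.3 or less and each was lost in at least 1 alternative, all of them with all 15 libraries (adjusted p up to 0.188), where 27 genes were called higher and 1 lower. Lower calls numbered 2 without asynchronous replicate 2, asynchronous replicate 3 or S-phase replicate 2. An E2F motif, TTTGGCGC or TTTCGCGC on either strand, was in 23.4% of the 47 windows found for these genes and in 1.15% of all windows. In windows of genes tested its share was 2.03%. The POLA2 window is shown as an example, with the motif in capitals 53 bases before the start.
POLA2, chr11:65261812-65261961, plus strand: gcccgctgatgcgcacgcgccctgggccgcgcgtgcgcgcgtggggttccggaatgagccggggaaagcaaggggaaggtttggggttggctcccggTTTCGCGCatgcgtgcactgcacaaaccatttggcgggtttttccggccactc
Of the 11 members with this motif 7 were called higher, a share close to that of the whole list, 37 of 57. Another 3 had values of 0.14 to 0.2 that did not pass, and POLE2 was called lower, as given above. The motif thus did not set these members apart from the list.

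Fork protection, recombination and checkpoint genes had a median of 0.17. They gave 23 higher and 3 lower calls of 54, beside 21.2 and 19.4% of all genes. BRCA1, a recombination factor, stood at 11.34 and 11.11 against 10.4, 10.44 and 10.57 (0.76 ± 0.09, limma adjusted p = 4.21e-05). EXO1, a resecting nuclease, rose by 0.75 and FANCI, of the Fanconi anaemia pathway, by 0.7. RAD52, an annealing protein, fell by 0.41 ± 0.09 (adjusted p = 0.00261). NBN fell by 0.29 and HUS1 by 0.49, and these calls were lost with all 15 libraries (NBN, adjusted p = 0.114) and without S-phase replicate 2 (HUS1, adjusted p = 0.0988). Without S-phase replicate 1 there were 5 lower calls, and without S-phase replicate 2 there were 2.

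Genes of G2 and mitosis were split. Of 74 tested 16 were called higher and 9 lower, with a median of 0.05, which is close to that of all genes, and the share called was below the 40.6% of all genes. SPC25, a kinetochore subunit, rose by 0.78, CDK1, the mitotic kinase, by 0.67 ± 0.08 (limma adjusted p = 5.62e-05), TOP2A, a topoisomerase, by 0.57 and NUSAP1, a spindle protein, by 0.53. CDC20, the activator of the anaphase-promoting complex, stood at 11.14 and 11.04 against 11.72, 11.92 and 12.12 and fell by 0.83 ± 0.1 (adjusted p = 6.85e-05). PLK1, a mitotic kinase, fell by 0.62, CDCA8, of the chromosomal passenger complex, by 0.36, and PIF1, a DNA helicase, by 1.39 ± 0.12 (adjusted p = 9.04e-06). CCNB1, CCNA2 and MKI67, the genes of cyclins B1 and A2 and of the proliferation antigen Ki-67, had differences of -0.23, 0.19 and 0.23 that did not pass (adjusted p = 0.0523, 0.129 and 0.225). Higher and lower calls numbered 8 and 14 without S-phase replicate 1, 25 and 6 without S-phase replicate 2, 9 and 5 without asynchronous replicate 2, 12 and 12 without asynchronous replicate 1, and 10 and 5 with all 15 libraries. The list median was -0.018 without S-phase replicate 1, -0.001 without asynchronous replicate 1, 0.128 without S-phase replicate 2 and 0.083 without asynchronous replicate 3.

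Many genes of G2 and mitosis share CCAAT boxes and the cell cycle homology region, a short element searched here as TTTGAA or TTCGAA on either strand. Of 62 windows found for the list 77.4% held CCAAT and 71% the short element, against 34.6 and 16.4% of all windows. In windows of genes tested the shares were 36.6 and 11.4%. The list shares cover higher, lower and uncalled members together and do not set the lower ones apart. Promoters of 3 members called lower are shown as examples. Capitals mark both, CCAAT being written ATTGG where it lies on the opposite strand.
PIF1, chr15:64825648-64825797, minus strand: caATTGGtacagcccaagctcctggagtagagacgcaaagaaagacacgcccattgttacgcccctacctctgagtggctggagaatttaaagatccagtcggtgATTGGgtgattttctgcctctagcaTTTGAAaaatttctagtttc
CDC20, chr1:43358831-43358980, plus strand: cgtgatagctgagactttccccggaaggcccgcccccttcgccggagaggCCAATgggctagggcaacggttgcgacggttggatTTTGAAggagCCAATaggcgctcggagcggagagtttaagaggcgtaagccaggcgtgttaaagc
PLK1, chr16:23678739-23678888, plus strand: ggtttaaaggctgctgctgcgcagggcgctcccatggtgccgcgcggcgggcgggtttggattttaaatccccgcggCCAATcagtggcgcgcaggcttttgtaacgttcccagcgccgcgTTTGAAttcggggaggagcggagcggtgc
In all 3 the short element lies within 65 bases before the start, at 20 bases in PIF1, 65 in CDC20 and 29 in PLK1. For G1/S genes and for called genes as a whole fewer than 80% had a window, so no share is given for them. The genes tested fell short of this too, at 76.3%, and serve only as background.

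**Figure D3:**
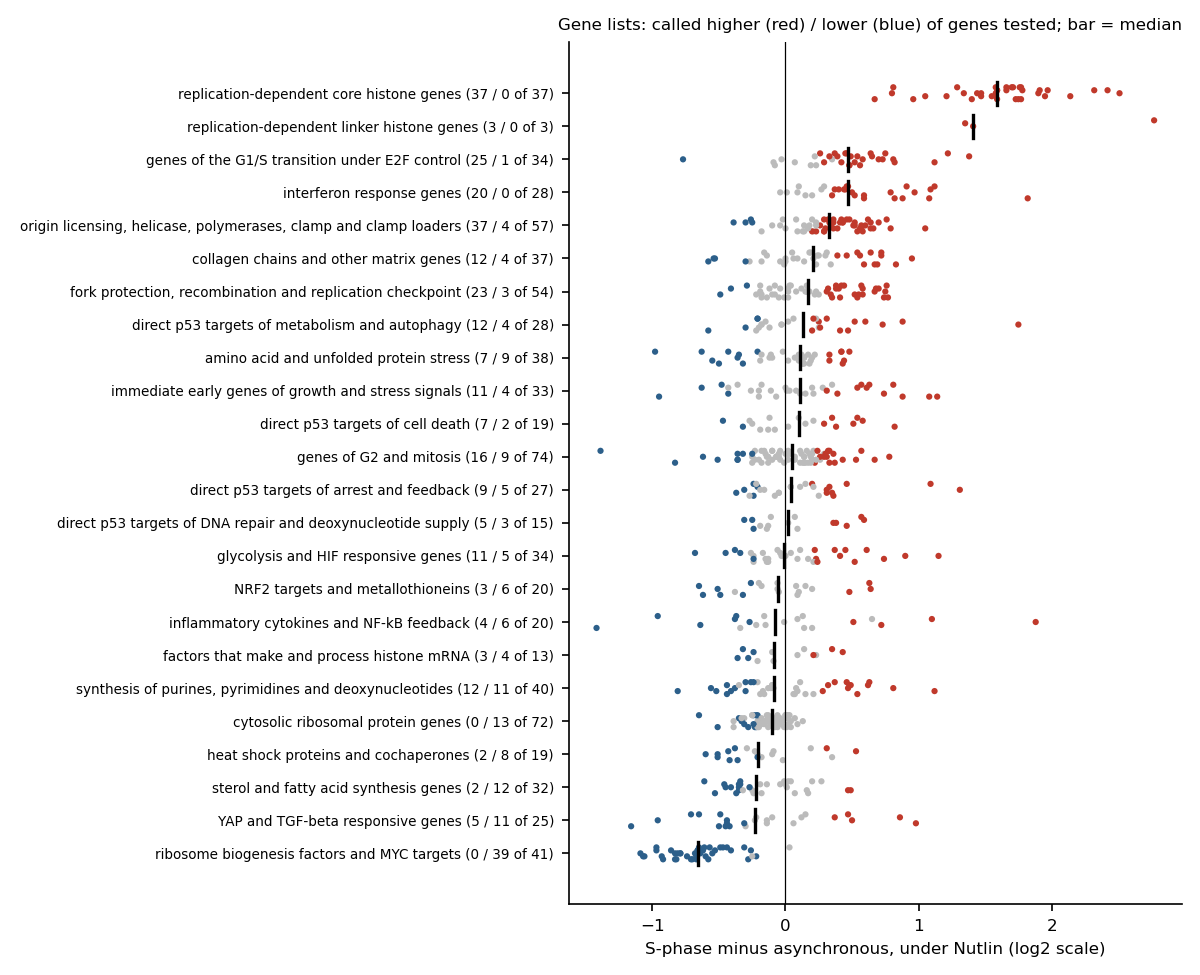
S-phase minus asynchronous difference of every gene tested in 24 lists, on the log2 scale, with genes called higher in red, called lower in blue and not called in grey; black bars are list medians and the numbers are genes called higher and lower of those tested. Core histones have the highest median, 1.59, and ribosome biogenesis genes the lowest, -0.66.

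Ribosome biogenesis genes and MYC targets fell together, with 39 of 41 called lower, none higher and a median of -0.66, beside 19.4% of all genes called lower. RRP12, a nucleolar export factor of ribosomal subunits, stood at 10.4 and 10.35 against 11.3, 11.6 and 11.49 (-1.09 ± 0.09, limma adjusted p = 5.76e-06). MYBBP1A, a nucleolar protein, fell by 1.07, RRP9, of the box C/D particle that guides early cleavage of ribosomal RNA, by 0.97 and MRTO4, an assembly factor of the large subunit, by 0.92. The 2 genes not called, named after their values were seen, were CIRH1A at -0.25 and UBTF, a factor of RNA polymerase I, at 0.03. Non-released libraries were lower still, with list medians of -0.97 and -0.94 against -0.64 and -0.68 in S-phase libraries. MYC itself stood at 10.9 and 11.09 against 11.95, 12.03 and 11.86 and fell by 0.95 ± 0.08 (adjusted p = 9.58e-06), and lay at 10.53 and 10.66 in non-released cells. Ribosomal protein genes had a median of -0.10, with 13 of 72 called lower, a share near the 19.4% of all genes, and none higher, led by RPL9 at -0.65 and RPL17 at -0.51. Lower calls in that list numbered 5 without asynchronous replicate 2, 6 without asynchronous replicate 3 and 2 with all 15 libraries, and the median was -0.036 without S-phase replicate 2 and -0.169 without S-phase replicate 1. Ribosomal protein genes have many processed copies, so their reads are uncertain.

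Interferon response genes were higher, with a median of 0.47. Of 28 tested 20 were called higher and none lower, beside 21.2 and 19.4% of all genes. SAMD9, an antiviral effector, stood at 10.67 and 10.6 against 9.03, 8.67 and 8.76 (1.82 ± 0.1 SE, limma adjusted p = 2.24e-07). PARP9 and PARP14, ADP-ribosylation proteins of the response, rose by 1.09 and 0.97. IFI44 rose by 1.08 from a low level, 28.8 to 31 normalised reads in asynchronous and 103.7 to 116.1 in S-phase libraries. On log2 counts per M reads with a pseudocount of 0.5, which compress low values less, the list median was 0.76. Of the 28 genes 25 met the minimum level on asynchronous libraries alone, and 17 further genes of the list were not tested. The non-released libraries had list medians of 0.66 and 0.63, beside 0.51 and 0.5 in S-phase libraries.

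Of 40 nucleotide synthesis genes 12 were called higher and 11 lower, beside 21.2 and 19.4% of all genes, and the median was -0.09. The median was -0.019 without S-phase replicate 2, -0.057 without asynchronous replicate 2 and -0.056 without asynchronous replicate 3. Several enzymes of deoxynucleotide supply rose: besides RRM2 and RRM1, TK1, the thymidine kinase of the salvage route, rose by 0.54 ± 0.07 (limma adjusted p = 0.000111). SHMT1, which makes one-carbon units for thymidylate, rose by 0.63. DHODH, the mitochondrial enzyme of de novo pyrimidine synthesis, stood at 8.17 and 7.95 against 8.76, 8.96 and 8.91 and fell by 0.81 ± 0.11 (adjusted p = 0.000203). PFAS, of de novo purine synthesis, fell by 0.56, MTHFD1L, of mitochondrial folate metabolism, by 0.52 and DCTD, a deaminase of deoxycytidylate, by 0.41. A fit of all 15 libraries called 9 higher and 6 lower.

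Genes listed here as p53 targets, some of which other factors also regulate, moved in both directions between the states, with p53 activated in each. MDM2 stood at 14.61 and 14.71 in S-phase and at 14.71, 14.6 and 14.55 in asynchronous libraries, so the groups overlapped (0.04 ± 0.08, limma adjusted p = 0.709). CDKN1A, which encodes p21, stood at 13.87 and 14.17 against 13.58, 13.51 and 13.59, and rose by 0.46 ± 0.09 (adjusted p = 0.00179). That call was lost with all 15 libraries (adjusted p = 0.572) and kept in the fit of 13 libraries described below. Among 27 listed targets of arrest and feedback 9 were called higher and 5 lower, beside 21.2 and 19.4% of all genes. Their median was 0.04. TP73, a p53 relative that E2F factors also induce, stood at 8.35 and 8.6 against 7.06, 7.12 and 7.31 (1.31 ± 0.12, adjusted p = 1e-05), and CCNG2, an atypical cyclin, rose by 1.09. These counts were unsteady: 9 and 0 without S-phase replicate 1, 6 and 7 without S-phase replicate 2, 6 and 2 without asynchronous replicate 2, 8 and 1 without asynchronous replicate 1, 7 and 2 without asynchronous replicate 3, and 4 and 1 with all 15 libraries. The list median was -0.038 without S-phase replicate 2, 0.096 without S-phase replicate 1, 0.087 without asynchronous replicate 1 and 0.079 without asynchronous replicate 3. In the fit of 13 libraries 9 members were called higher and 4 lower.

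Of 28 genes listed as p53 targets of metabolism and autophagy 12 were called higher and 4 lower, with a median of 0.13. As background for each list given here, 21.2% of all genes were called higher and 19.4% lower. GLS2, a mitochondrial glutaminase, stood at 7.83 and 8.03 against 6.27, 6.15 and 6.12 and rose by 1.75 ± 0.13 (limma adjusted p = 1.79e-06), which with all 15 libraries did not pass (adjusted p = 0.0592). SESN3, a stress-responsive regulator of mTORC1, rose by 0.88, FUCA1, a lysosomal fucosidase, by 0.73 and GAMT, of creatine synthesis, by 0.6, while LPIN1, a phosphatidate phosphatase, fell by 0.58. Of 19 cell death targets 7 were called higher and 2 lower, among them CASP10, an initiator caspase, at 0.82 ± 0.13 (adjusted p = 0.000445) and AEN, a nuclease, at -0.47. Of these 19, 18 met the minimum level on asynchronous libraries alone, and the stricter minimum left 18 with 6 called higher. Of 15 repair targets 5 were called higher and 3 lower, and DDB2, a sensor of ultraviolet damage, rose by 0.59. Higher and lower counts with all 15 libraries were 3 and 2 for metabolism, 2 and 1 for cell death and 3 and 0 for repair. In the fit of 13 libraries described below they were 12 and 3, 7 and 2, and 5 and 3. Metabolism gave 7 and 2 without asynchronous replicate 2, 8 and 2 without asynchronous replicate 3 and 9 and 2 without asynchronous replicate 1 or S-phase replicate 1. Cell death gave 5 and 6 without S-phase replicate 2, and 6 and 1 without asynchronous replicate 2. Repair gave 0 lower calls without asynchronous replicate 3, 2 without asynchronous replicate 1 and 1 without asynchronous replicate 2 or S-phase replicate 2.

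**Figure D4:**
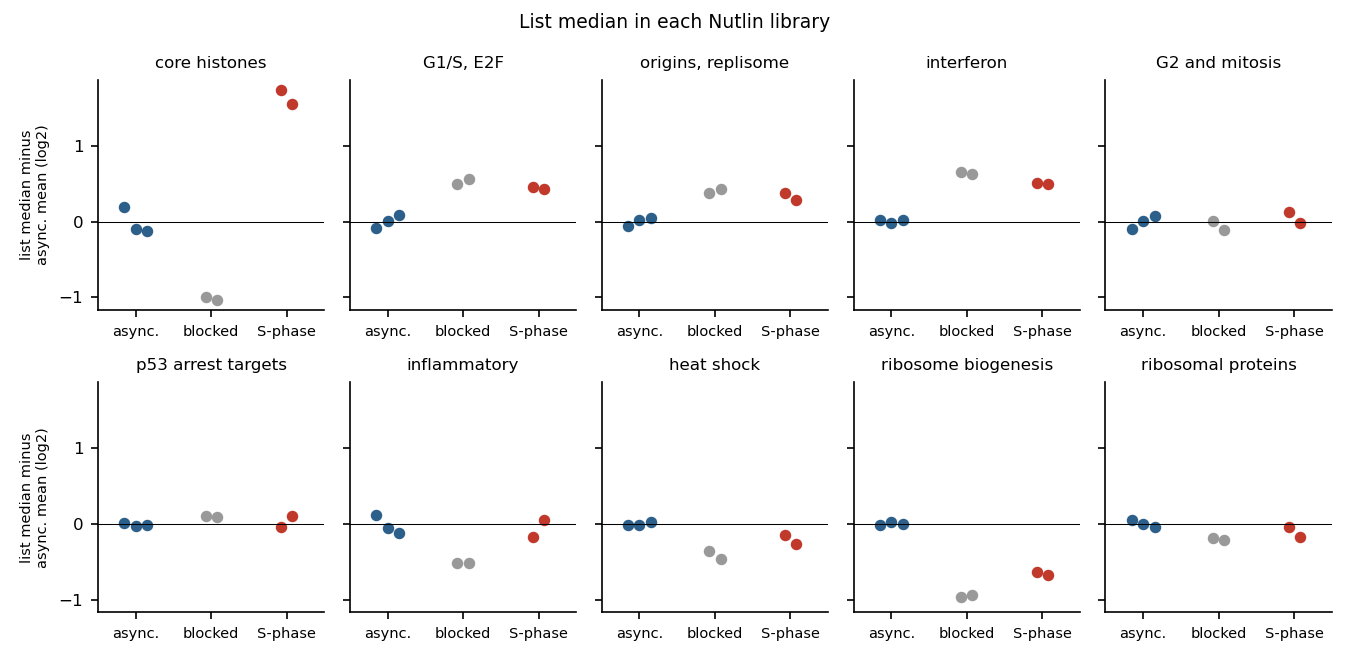
Median of 10 gene lists in each Nutlin library, each gene taken relative to its asynchronous mean (log2 scale, y axis), for 3 asynchronous, 2 blocked (non-released) and 2 S-phase libraries. Core histones lie at -0.99 and -1.03 in blocked and at 1.73 and 1.55 in S-phase libraries, whereas G1/S genes lie between 0.43 and 0.56 in both.

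Immediate early genes gave 11 higher and 4 lower calls of 33, beside 21.2 and 19.4% of all genes, with a median of 0.11. Of the 33, 31 met the minimum level on asynchronous libraries alone, and a stricter minimum left 28, of which 9 were called higher, with a median of 0.053. NR4A1, an orphan nuclear receptor, stood at 9.21 and 9.65 against 8.77, 8.11 and 8 (1.14 ± 0.2, limma adjusted p = 0.000746). JUNB and FOS, of the AP-1 family, rose by 1.08 and 0.81, and HES1, a Notch target, by 0.88. JUN, of the same AP-1 family, fell by 0.43, and SRF, a factor that drives many of these genes, by 0.48, beside the fall of MYC given above. Calls numbered 7 and 7 without S-phase replicate 2, and 6 and 3 with all 15 libraries. The list median was 0.021 without S-phase replicate 2, 0.022 without asynchronous replicate 3 and 0.19 without asynchronous replicate 1.

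Of 20 inflammatory genes 4 were called higher and 6 lower, beside 21.2 and 19.4% of all genes, so the counts set the list little apart from genes at large. IL11, a cytokine of the IL-6 family, stood at 10.95 and 11.67 against 9.98, 9.22 and 9.1, with no overlap but a wide spread in both groups (1.88 ± 0.23, limma adjusted p = 8.11e-05). IL8, a neutrophil chemokine, rose by 1.1 and PTGS2, the inducible cyclooxygenase, by 0.72. CCL4, the neighbour and relative of CCL3, fell by 0.96 ± 0.19 (adjusted p = 0.0018), from 30.6 to 75.6 normalised reads in asynchronous libraries to 5.5 and 9.7. TNFAIP3 and NFKBIA, which dampen NF-kB, fell by 0.64 and 0.37. Calls numbered 7 and 4 without S-phase replicate 1 and 4 and 4 with all 15 libraries, and the list median of -0.08 became 0.05 without S-phase replicate 1 or asynchronous replicate 1.

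YAP and TGF-beta responsive genes had a median of -0.23. Among 25 of them 11 were called lower and 5 higher, beside 19.4 and 21.2% of all genes. EDN1, the vasoconstrictor endothelin, stood at 9.64 and 9.54 against 10.88, 10.43 and 10.32 (-0.96 ± 0.14, limma adjusted p = 0.000261). AJUBA, a LIM scaffold protein, fell by 0.71 and CRIM1, a transmembrane BMP modulator, by 0.49, whereas TGFBI, a matrix protein, rose by 0.98. Without S-phase replicate 1 lower calls numbered 7, and with all 15 libraries 3 were called higher and 8 lower.

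The same difference between states was measured in DMSO, where S-phase and asynchronous cells have 3 libraries each and share none with the Nutlin comparison. In DMSO limma, fitted to all 15 libraries, called 3940 of 13868 genes, or 28.4%. The Nutlin comparison called 25% in that fit, and its 40.6% given above comes from the fit of 7 Nutlin libraries. A fit of 13 libraries left out DMSO asynchronous replicate 3, which earlier work on these data set apart by its epithelial transcripts and high p53 targets. It also left out DMSO S-phase replicate 2, the shallowest library at 6.05 M reads. That fit called 33.1% of genes in DMSO and 42.1% under Nutlin. The difference between both comparisons was then tested as an interaction. No gene of 14118 passed an adjusted p of 0.05 in limma, 780 had an unadjusted p under 0.05, voom on recovered reads likewise gave 0 with 679, and the fit of 13 libraries gave 0 of 13981 with 1159. This does not show that the comparisons are alike, since the SE of single genes leaves room for sizeable differences. CYP24A1 differed between states by 2.43 under Nutlin and 2.19 in DMSO (13 libraries), SYTL5 by 2.06 and 2.09, SAMD9 by 1.82 and 1.71, and CDC20 by -0.83 and -0.86.

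Wider gaps between the comparisons were measured for the cell cycle genes CCNE2 and CDC6. CCNE2 differed by 1.38 under Nutlin and 0.51 in DMSO, a gap of 0.86 ± 0.14 SE with 13 libraries (interaction, limma adjusted p = 0.11) and 0.89 ± 0.18 with all 15 (adjusted p = 0.547). CDC6 differed by 0.7 and 0.23, a gap of 0.47 ± 0.1 with 13 libraries (adjusted p = 0.158) and 0.47 ± 0.14 with all 15 (adjusted p = 0.834). GLS2 differed by 1.75 and 0.63, a gap of 1.12 ± 0.19 with 13 libraries (adjusted p = 0.11), while with all 15 its DMSO difference was -0.42 and the gap 2.17 ± 0.85 (adjusted p = 0.834). CCL3 differed by -1.42 and -0.54, NAPRT1 by -1.15 and -0.35, and HIST1H4I by 2.51 and 1.8. Adjusted p for these gaps was 0.606, 0.441 and 0.159 with 13 libraries, and 0.834 for each with all 15. The median of G1/S genes was 0.47 under Nutlin, beside 0.16 in DMSO with 15 libraries and 0.11 with 13. For origin and replisome genes the medians were 0.33, 0.11 and 0.09, for core histones 1.59, 1.27 and 1.04, for G2 and mitosis genes 0.05, -0.17 and -0.19, and for ribosome biogenesis genes -0.66, -0.61 and -0.63. None of these list values was tested.

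**Figure D5:**
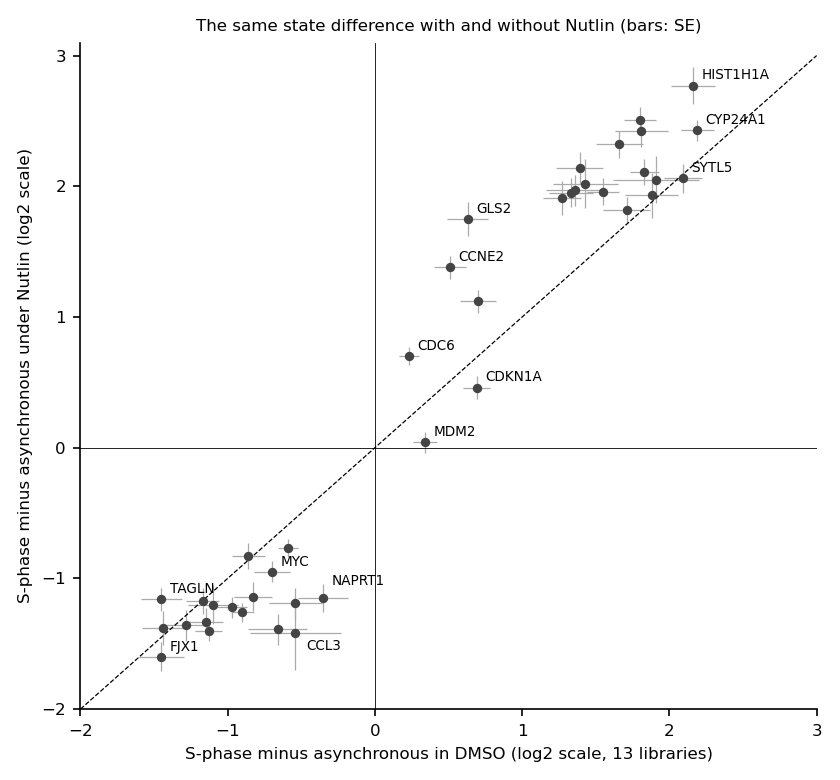
S-phase minus asynchronous difference under Nutlin (y axis) against the same difference in DMSO (x axis, 13 libraries), both on the log2 scale, for 40 genes: the 30 of largest difference and 10 genes of the cell cycle, p53 and interferon groups; bars are SE and the dashed line marks equality. CCNE2 lies at 1.38 and 0.51 and GLS2 at 1.75 and 0.63, above the line, and SYTL5 at 2.06 and 2.09, on it.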

How the data were processed

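RNA of U2OS cells was sequenced as single reads of 50 nt from 1000 ng of RNA, per the labels' protocols. The authors deposited 1 table of 23368 genes by 15 libraries, whose variance-stabilised values are on a log2 scale at high expression and are compressed at low read numbers. Build hg19, DESeq2 1.10.1, TopHat 0.9, HTSeq and CASAVA 1.8.2 are named, per the submitters' processing notes, without a role for each. Annotation and strand are not given in the sources used here, so reads of overlapping genes cannot be told apart. Normalised reads were recovered by inverting the transformation from its lowest value, 4.859, and in each library at least 99.29% of values differed from a whole number of reads by less than 0.05 once scaled.

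The S-phase and asynchronous groups were compared in R 4.3.3 by limma 3.58.1, fitted to the 7 Nutlin libraries with a mean for each group, eBayes with trend, two-sided tests and Benjamini-Hochberg adjustment over all genes tested. A gene was tested if at least 2 of the 5 compared libraries lay 1 unit or more above the lowest value. Tests were checked on simulated data. Alternatives were the libraries in the fit, the filter, the scaling, voom with a pseudocount of 0.5, the moderation, a replicate block and leaving out each library. Named genes were the 15 largest called differences in each direction without overlap of the groups and with a mean 2 units above the lowest value, the 4 called members of smallest p per direction in 28 lists, and 11 check genes. A few of these genes are not reported here. The members and lists were chosen with earlier results of these data known. Lists got no test, only counts and medians. Promoter windows came from RefSeq, build GRCh38.p14, matched by symbol.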

Additional observations from a re-analysis of the deposited data

How the results depend on the processing

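With 13 libraries 5794 genes were called, with the 5 compared libraries alone 5155, without a filter 5512, with a stricter one 5024, and with voom 5226. The stricter filter gave 2448 higher and 2576 lower calls, so the small excess of higher calls was not kept there. With all 15 libraries the count was 3431, of which 3428 were also called, in the same direction, in the fit of 7 libraries. Leaving out single libraries gave 3962 (without asynchronous replicate 2) to 5113 calls, and 0 in each case for the interaction, with 367 to 1372 genes at an unadjusted p under 0.05. Deviations of S-phase and asynchronous libraries from their group means correlated at -0.02 to 0.02. With 2 S-phase libraries, whose deviations mirror each other, this cannot show whether same-numbered libraries were prepared together. The replicate block gave 5361 calls and 0 for the interaction. Of 189 called named genes 139 were called in every analysis. None of these 189 genes changed direction in any, and 158 of their 2826 values lost the call, 45 of them with all 15 libraries. MDM2, not called, ran from -0.01 (without S-phase replicate 2) to 0.1. Medians of lists close to 0 changed sign when a library was left out. Over the 5 libraries left out in turn, medians ran from -0.131 to 0.019 for histone mRNA factors, -0.038 to 0.096 for p53 arrest targets and -0.044 to 0.098 for glycolysis and HIF genes, each changing sign without S-phase replicate 2. They ran from -0.018 to 0.128 for G2 and mitosis and from -0.17 to 0.049 for inflammatory genes, changing sign without S-phase replicate 1 (-0.018 and 0.049) or asynchronous replicate 1 (-0.001 and 0.047). Without asynchronous replicate 1 they also changed sign for p53 repair targets (-0.003, range to 0.03) and for glycolysis and HIF genes (0.033). The cause of these changes was not tested. Depth limits genes of few reads, where values are compressed and groups of 2 and 3 libraries leave wide errors.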

Other observations

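Further gene groups were described in the same way. Collagen chains and other matrix genes had a median difference of 0.21 on the log2 scale. In limma 12 of 37 were called higher and 4 lower, beside 21.2 and 19.4% of all genes. COL11A1, a fibrillar collagen, rose by 0.95 ± 0.1 (adjusted p = 2.49e-05) and LAMA4, a laminin chain, by 0.83, while TNC, the matrix protein tenascin C, fell by 0.58. The median was 0.051 without S-phase replicate 2 and 0.314 without S-phase replicate 1. Lower calls numbered 7 without S-phase replicate 2, 2 without asynchronous replicate 2 and 1 with all 15 libraries. Glycolysis and HIF responsive genes gave 11 higher and 5 lower calls of 34, beside 21.2 and 19.4% of all genes. PFKFB4, a regulator of glycolytic flux, rose by 1.15 ± 0.12 (adjusted p = 2.53e-05), EGLN3, an oxygen-sensing hydroxylase, by 0.9 and BNIP3L, a mitophagy receptor, by 0.74, while HK2, a hexokinase, fell by 0.68 and PFKFB3, a relative of PFKFB4, by 0.34. A fit of all 15 libraries called 7 of these genes higher.

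Sterol and fatty acid synthesis genes were lower on balance, with a median of -0.22. Of 32 tested 12 were called lower and 2 higher, beside 19.4 and 21.2% of all genes. LSS, a late enzyme of sterol synthesis, fell by 0.53 ± 0.08 (limma adjusted p = 0.000268) and ACLY, which supplies cytosolic acetyl-CoA, by 0.35. With all 15 libraries 5 were called lower, and without asynchronous replicate 1 there were 6 higher calls and the median was -0.143. Heat shock proteins and cochaperones had 8 of 19 called lower and 2 higher, beside 19.4 and 21.2% of all genes. HSPA8 stood at 14.92 and 14.69 in S-phase against 15.45, 15.38 and 15.39 in asynchronous libraries (-0.6 ± 0.09, adjusted p = 0.000297). HSP90AB1 had a difference of -0.51. The counts were 0 higher and 5 lower with all 15 libraries, and no higher call was made without asynchronous replicate 2 or S-phase replicate 1. Genes of the amino acid and unfolded protein stress responses gave 7 higher and 9 lower calls of 38, shares close to the 21.2 and 19.4% of all genes. The endoplasmic reticulum degradation genes HERPUD1 and EDEM1 rose by 0.42 each, while PPP1R15A, a phosphatase subunit of the stress response, fell by 0.98 and the amino acid transporter SLC7A5 by 0.63. A fit of all 15 libraries called 4 and 5. Among NRF2 targets and metallothioneins 3 of 20 were called higher and 6 lower, beside 21.2 and 19.4% of all genes. Of the 3 higher genes, AKR1C1 and AKR1B10 met the minimum level only through S-phase libraries, which favours a higher value there. The list held NQO1, a quinone reductase, at 0.63 ± 0.09 (adjusted p = 0.000272) and HMOX1, a haem oxygenase, at -0.65. Lower calls numbered 4 without asynchronous replicate 2 or S-phase replicate 1 and 3 with all 15 libraries.

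Marker lists of cell types were mixed as well. As background, 21.2% of all genes were called higher and 19.4% lower. Of 16 bone and mesenchymal markers 5 were called higher, among them SPP1, which encodes osteopontin, at 0.7 ± 0.14 (limma adjusted p = 0.00201), and 1 lower, ENG, at -0.56, a call lost without S-phase replicate 1 and with all 15 libraries (adjusted p up to 0.145). Of 8 epithelial markers tested 4 were called higher, and with all 15 libraries 1 was. KRT14, a keratin, rose by 0.79 and was called in every analysis. Of 6 luminal breast markers 1 was called, and of 4 blood markers 1 was called, CORO1A, at 0.75. The higher bone and mesenchymal calls numbered 3 without asynchronous replicate 3 or S-phase replicate 2 and 2 with all 15 libraries.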
